A study of Mus musculus with 15 samples.

Results

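The genes described here are 9 core components of Jak, Stat and Socs signalling, taken from the count tables of mouse distal colon by their gene symbols. These genes and the lists used below were chosen with earlier results of these data known. They are the kinases Jak1, Jak2 and Tyk2, the transcription factors Stat2, Stat3, Stat5a and Stat6, and the inhibitors Socs1 and Socs3. Of these, 8 had a row among the 12897 genes of the tables, and all 8 were in every table. Socs1 had no row and was not analysed here.

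In this pathway, cytokines and interferons bring together receptor chains that carry Jak kinases on their intracellular tails. The Jaks phosphorylate each other and the receptor, Stat proteins dock there and are phosphorylated in turn, and the paired Stats enter the nucleus and bind DNA. Socs genes are among the genes that Stats switch on, and Socs proteins then inhibit the receptor complex. In the colon the pathway carries signals of interferons, Il6, Il10, Il22 and related cytokines between leukocytes, stroma and epithelium. The proteins are switched on by phosphorylation, which was not measured here, so the values below describe the supply of their transcripts.

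RNA-seq was performed on the distal colons of 15 C57BL/6 (B6) background mice, 3 in each of 5 groups. The untreated groups were wildtype B6 mice in control set 1, wildtype B6 mice in control set 2, and mice mutant for Irf1, a transcription factor induced by interferons (Irf1-/-). The treated groups were wildtype B6 mice and Irf1-/- mutants sacrificed at D26 of an AOM/DSS protocol. Their protocol began on D1 with 1 injection of 7 mg/kg AOM, which alkylates DNA and gives rise to colon tumours. DSS, which damages the lining of the colon, followed as 2% of the water they drank between D8 and D11. D26 thus lies well after the end of DSS. The labels give no age, sex or litter, and number the mice within each group only.

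Between 22237032 and 22840011 reads per library fell on the genes shared by all tables. For the 8 genes, counting alone gives a coefficient of variation (CV) of 1.43% to 7.18%, and in 6 of their 40 combinations of gene and group the CV between mice was below it. Irf1 reads were present in the mutants, at 79.4 to 123 CPM (read counts normalised to library size with edgeR's TMM method over the 15 libraries), and every mutant library lay below every B6 library (128 to 227 CPM), by a log2 FC of -0.49 (adjusted p = 0.128, edgeR's quasi-likelihood test) untreated and -0.93 (adjusted p = 0.0117) at D26. Which part of the gene is deleted was not used here. Xist, expressed in females, was at 5.97 to 25.2 CPM in replicates 1 and 2 of B6 D26 and in replicate 1 of Irf1-/- D26, and at 321 CPM or more in the other 12 libraries. The libraries of B6 D26 also stood apart in GC dependence. The slope of the log2 deviation per 10% GC was 0.13 to 0.28 there and -0.12 to 0.03 in the other libraries. Values after a correction of each library for GC content are given below for members of the 8 other than Jak1. Values of all other genes are uncorrected, including those of B6 at D26. The markers of colon epithelium (11 of 11 listed, summed level 9743 to 15815 CPM) and smooth muscle (7 of 7, 6798 to 8778 CPM) were abundant in all groups. Of the T and NK cell markers, 7 of 8 were not in every table, and the same held for 5 of 7 neutrophil and 4 of 5 mast cell markers.

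Tests were run on the raw counts with edgeR's quasi-likelihood method, and p was adjusted by Benjamini-Hochberg over all genes of a comparison. A call needed an adjusted p under 0.01 and a fold change (FC) of 1.5 or more, the thresholds of the study. Across the comparisons 1 of the 8 genes was called, in 1 comparison. Socs3 rose in Irf1-/- colons at D26 relative to untreated Irf1-/- colons, where 0.252% of all 12692 genes were called. No gene of the 8 was called in B6 colons at D26 relative to control set 1 (0.0475% of all genes called), in the mutants before treatment relative to control set 2 (0.405%), in Irf1-/- relative to B6 colons at D26 (0.385%), in the difference between the mutant and B6 responses (0.016%), or between the 2 B6 control sets (0.0644%). At an unadjusted p under 0.05 from the same test, 4 of the 8 genes were higher in the B6 response (14.7% of all genes higher and 14.8% lower at this level) and 3 in the Irf1-/- response (10.1% and 8.47%). Stat6 alone was lower in the mutants than in B6 at D26 (11.4% of all genes higher and 10.6% lower), and Jak2 alone in control set 2 than in set 1 (9.11% and 8.08%). None of the 8 had such a p between untreated genotypes (5.2% and 5.23%) or for the difference between the responses (9.65% and 7.23%). Several comparisons share libraries, so their values are given side by side and are not independent.

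Both treated groups lay above their untreated controls for most of the 8 genes, by small amounts. The log2 FC was positive for 7 of 8 genes in B6 colons, with a median of 0.18 beside 0.01 over all genes (51.8% of which were positive), and for 7 of 8 in Irf1-/- colons, with a median of 0.19 beside 0.01 (51.8% positive). The exceptions were Jak2 in B6 (-0.15) and Tyk2 in the mutants (-0.02). With the GC correction 6 of 8 were positive in B6, with a median of 0.10, and 7 of 8 in the mutants, with a median of 0.16. The GC content of Stat2, Stat3, Stat6, Tyk2, Stat5a and Socs3 is above the median of all genes, at the 62.4 to 93.5 percentile, and genes within 2% GC of each had a median log2 FC of 0.08 to 0.19 in the B6 response. In the untreated genotype comparison 3 of 8 were positive, with a median of -0.03 beside 0.00 over all genes (50.8% positive). The difference between the responses was positive for 5 of 8 (51.9% of all genes), the genotype comparison at D26 for 4 (48.5%) and that of the control sets for 4 (49.2%). All libraries of the treated group were above all untreated ones for 3 of the 8 genes in B6 (16.4% of all genes in this direction) and for 4 of 8 in the mutants (12.2%). The reverse held for none of the 8 (18.1% and 13% of all genes). Between untreated genotypes, 1 of 8 was lower in all mutant libraries (7.61% of all genes) and none was higher (7.83%), and at D26 the same counts held (13% and 14.5%). The control sets overlapped for all 8 (10.4% of all genes higher and 11% lower without overlap). These are bulk samples, in which more transcript per cell and more cells of a type cannot be told apart.

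**Figure D1:**
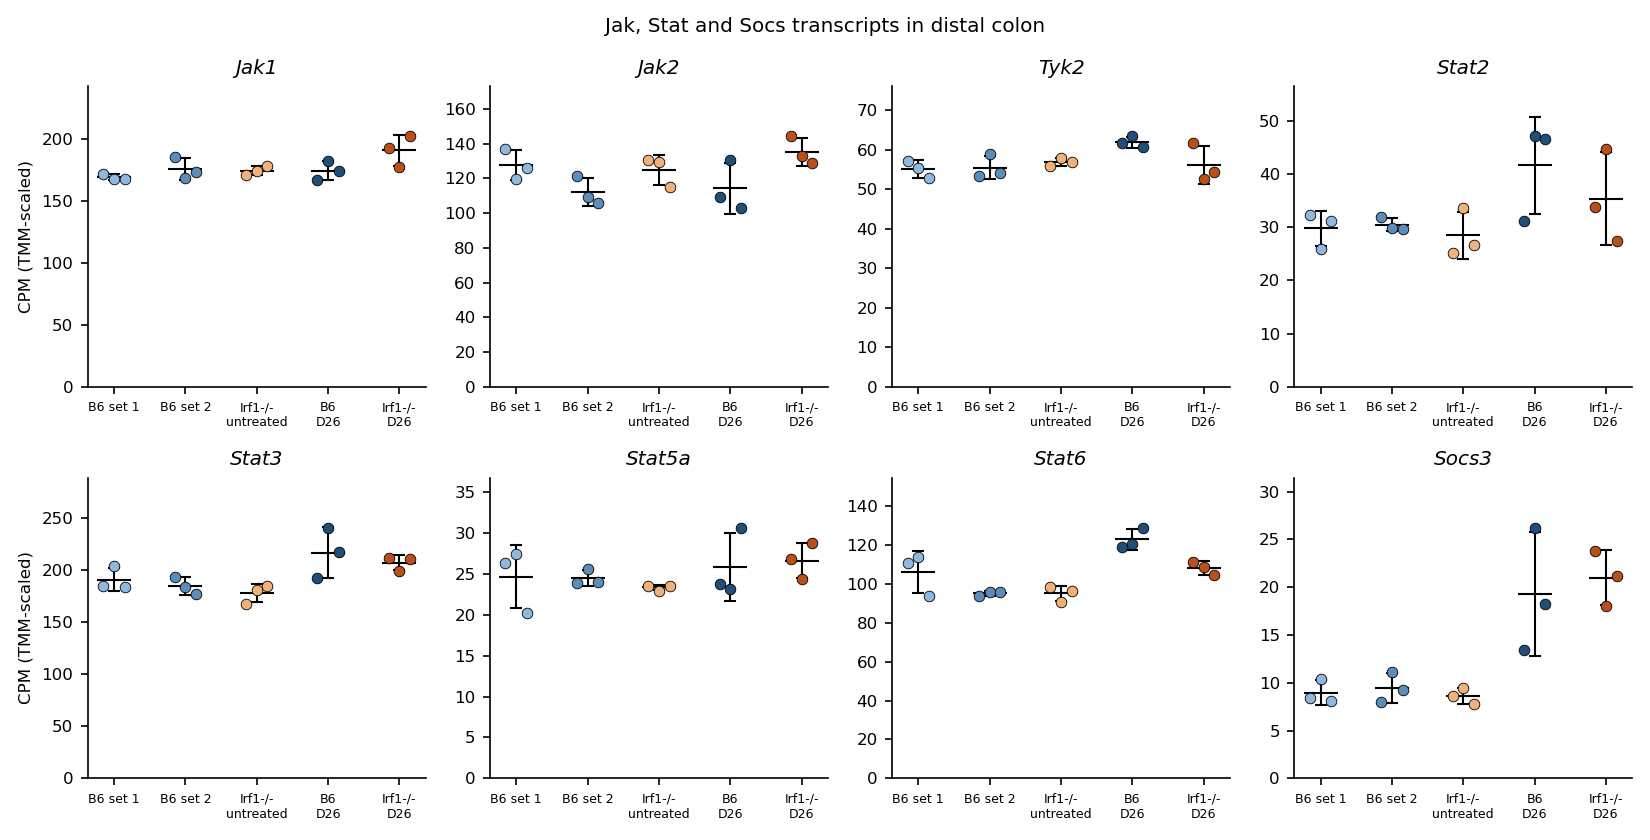
Level of each of the 8 genes in every library (points, CPM scaled by TMM, linear axes from 0), with the mean (horizontal bar) and SD of the 3 mice per group. Socs3 is at 7.81 to 11.2 CPM in all untreated libraries and at 13.4 to 26.2 CPM in all treated ones, while the groups of the other genes lie closer together.

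Per kilobase of the longest GENCODE M21 transcript, Jak1 was the most abundant of the 8 transcripts, with a mean of 36.1 CPM per kb over the 15 libraries. It was followed by Stat3 (32.4), Stat6 (28.0), Jak2 (24.4), Tyk2 (11.8), Stat2 (7.54), Stat5a (6.32) and Socs3 (5.28 CPM per kb). The least abundant gene varied most. The highest library was 3.36 times the lowest for Socs3, 1.87 times for Stat2, between 1.40 and 1.51 times for Jak2, Stat6, Stat3 and Stat5a, and 1.21 times for both Jak1 and Tyk2.

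Of the 8 genes, the kinases Jak1 and Tyk2 had the smallest range over all libraries, and Jak2 had a wider one. Jak1, which serves the interferon, gp130 and common gamma chain receptors, was at 172, 168 and 168 CPM in control set 1, 186, 169 and 174 in control set 2, and 171, 175 and 179 in untreated Irf1-/- colons. At D26 it was at 167, 183 and 175 CPM in B6 and 193, 178 and 203 CPM in Irf1-/- colons. The groups overlapped at every step of their order. Its log2 FC was 0.05 (95% CI -0.11 to 0.22, adjusted p = 0.666) in B6 and 0.13 (-0.02 to 0.29, adjusted p = 0.354) in the mutants at D26 (edgeR's quasi-likelihood test). The upper ends of these intervals, from fits without GC correction, are 1.16-fold and 1.22-fold. In the B6 response, genes within 2% GC of Jak1 had a median log2 FC of -0.03. Alternatives other than leaving out a mouse put Jak1 there at 0.003 to 0.090.

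Jak2, the kinase of the growth hormone, Il12 and interferon gamma receptors among others, had the largest log2 FC of the 8 between the control sets. It was at 137, 120 and 126 CPM in control set 1 and at 121, 109 and 106 CPM in control set 2 (log2 FC -0.19, SE 0.08, adjusted p = 0.279). Untreated Irf1-/- colons held 130, 129 and 115 CPM. At D26 the levels were 109, 131 and 103 CPM in B6 and 144, 133 and 129 CPM in Irf1-/- colons, with 1 B6 library inside the mutant range. The fitted responses had opposite signs, -0.15 (SE 0.10) in B6 and 0.12 (SE 0.08) in the mutants, and their difference of 0.28 (95% CI -0.01 to 0.56) had an adjusted p of 0.317 in edgeR's quasi-likelihood test. The sign in B6 depended on the control set. Jak2 has a GC content of 44.3%, and the 2337 genes within 2% GC of it had a median log2 FC of -0.13 in the B6 response. After a correction of each library for GC content, the Jak2 value in B6 was -0.02 and the difference between the responses was 0.15. With control set 2 as the B6 controls they were 0.04 and 0.09.

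Tyk2, the kinase of the type I interferon, Il10 and Il12 receptor chains, was at 57.3, 55.5 and 52.8 CPM in control set 1 and at 61.7, 63.5 and 60.7 CPM in B6 at D26. These groups did not overlap. Irf1-/- colons held 56.0, 57.9 and 56.9 CPM when untreated and 61.7, 52.5 and 54.4 CPM at D26, and here the groups overlapped. The log2 FC was 0.18 (SE 0.07, adjusted p = 0.149) in B6 and -0.02 (SE 0.07, adjusted p = 0.943) in the mutants, and the difference between the responses was -0.19 (95% CI -0.40 to 0.03, adjusted p = 0.355, edgeR's quasi-likelihood test). The 1992 genes of similar GC content (57.0% ± 2%) had a median log2 FC of 0.17 in the same B6 comparison, and with the GC correction the Tyk2 value was 0.01.

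**Figure D2:**
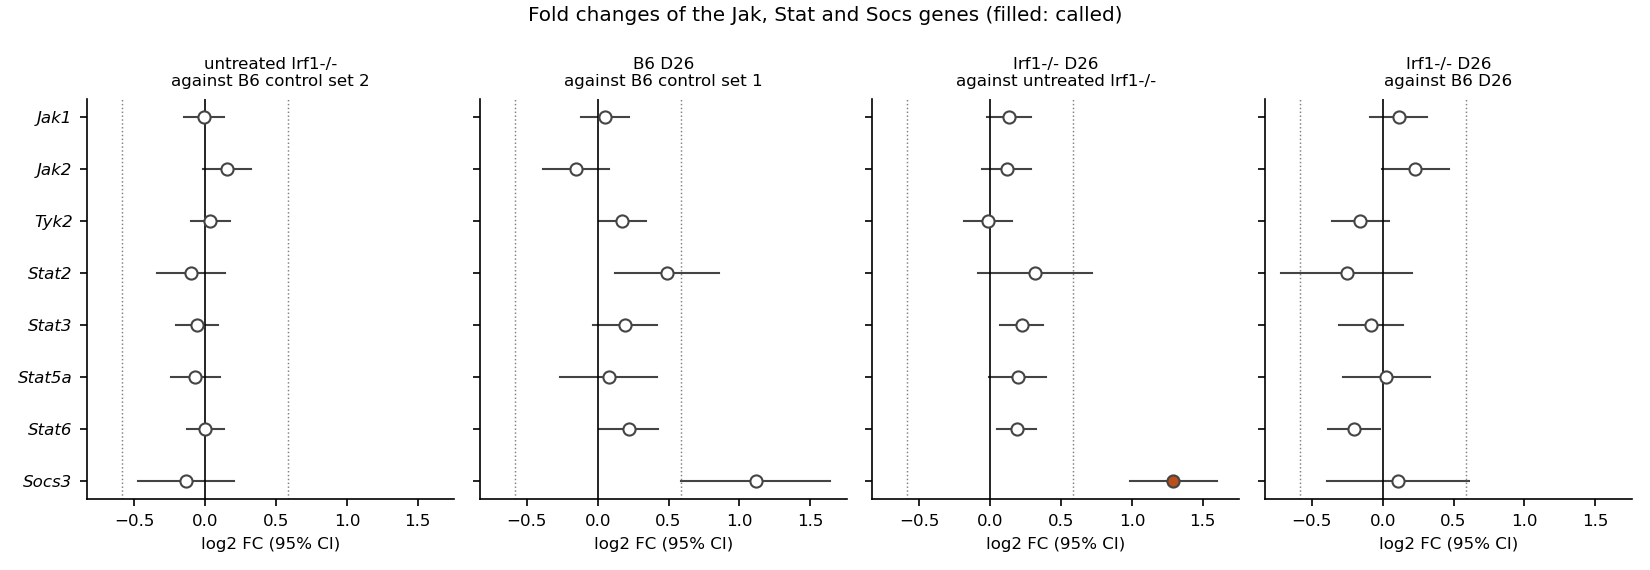
Log2 FC (points) and 95% confidence interval (lines) of the 8 genes in 4 comparisons, from edgeR's quasi-likelihood fit, where the dotted lines mark an FC of 1.5 in either direction and a filled point marks a called gene. Only Socs3 in the Irf1-/- response is called, at 1.29, and the interval of Socs3 in the B6 response runs from 0.59 to 1.64.

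The sequence upstream of the 2 genes with the largest fold changes at D26 is shown because Stats bind known DNA motifs. Sequences are from RefSeq, build GRCm38.p6, and the reads were counted on another build, so no other coordinates are given. The motifs searched on both strands in the 250 bases before the annotated start were TTCNNNGAA (a gamma-activated site, bound by most Stats), TTCNNNNGAA (the wider spacing used by Stat6) and GAAANNGAAA (the interferon-stimulated response element, bound by ISGF3). Capitals mark the matches. Socs3 (chr11:117969367-117969616, minus strand) held the first at positions -154 to -146, and Stat2 (chr10:128270248-128270497, plus strand) held the response element, here on the opposite strand, at -222 to -213 and the wider Stat site at -210 to -201.
Socs3: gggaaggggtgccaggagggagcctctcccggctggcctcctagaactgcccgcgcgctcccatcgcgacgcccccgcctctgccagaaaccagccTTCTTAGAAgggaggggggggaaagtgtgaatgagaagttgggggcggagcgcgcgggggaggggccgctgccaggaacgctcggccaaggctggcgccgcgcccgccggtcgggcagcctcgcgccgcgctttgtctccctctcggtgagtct
Stat2: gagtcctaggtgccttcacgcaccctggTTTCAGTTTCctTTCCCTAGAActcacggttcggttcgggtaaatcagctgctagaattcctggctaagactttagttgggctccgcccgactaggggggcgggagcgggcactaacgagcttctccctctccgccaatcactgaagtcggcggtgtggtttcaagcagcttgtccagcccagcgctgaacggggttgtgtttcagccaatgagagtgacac
The shares of the 32851 RefSeq promoters with a match were 7.02%, 5.85% and 2.98% for the 3 motifs, and no match was found in these windows of the other 6 genes. The starts are those of RefSeq, and the longest GENCODE M21 transcript begins 180 bases downstream of it for Socs3 and 78 bases downstream for Stat2, so positions depend on the annotation. A match is a stretch of letters and says nothing of binding.

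Among the transcription factors, Stat2 varied most from mouse to mouse. Stat2 acts with Irf9 in ISGF3, the complex through which type I and type III interferons act on their target genes. It was at 32.2, 26.0 and 31.1 CPM in control set 1, at 31.9, 29.9 and 29.6 CPM in control set 2 and at 25.2, 33.5 and 26.7 CPM in untreated Irf1-/- colons. In B6 colons at D26 it was at 31.1, 47.1 and 46.6 CPM, so that 2 of 3 libraries were above every untreated library and the other lay among them. In Irf1-/- colons at D26 it was at 33.8, 44.7 and 27.4 CPM, with 2 of 3 above the untreated range of 25.2 to 33.5 CPM. The log2 FC was 0.49 (SE 0.16, 95% CI 0.13 to 0.86, adjusted p = 0.0866) in B6 and 0.31 (SE 0.18, adjusted p = 0.389) in the mutants, and the difference of -0.17 (95% CI -0.75 to 0.40, adjusted p = 0.793, edgeR's quasi-likelihood test) leaves room for sizeable differences either way. With the GC correction the B6 value was 0.42 (adjusted p = 0.218).

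Stat3, the main transducer of gp130 and Il22 signals, was at 185, 204 and 184 CPM in control set 1 and at 192, 241 and 217 CPM in B6 at D26. In Irf1-/- colons it was at 168, 181 and 185 CPM when untreated and at 211, 199 and 211 CPM at D26. The mutant groups did not overlap and the B6 groups did. The log2 FC was 0.19 (SE 0.10, adjusted p = 0.225) in B6 and 0.22 (SE 0.07, 95% CI 0.07 to 0.37, adjusted p = 0.118) in the mutants. Their difference was 0.04 (95% CI -0.22 to 0.29, adjusted p = 0.913, edgeR's quasi-likelihood test). With the GC correction the B6 value was 0.11 and that of the mutants 0.21. The gene most like Stat3 across all libraries was Emr1, a gene of the macrophage list below.

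Stat6, which acts for Il4 and Il13, was at 111, 114 and 93.8 CPM in control set 1 and at 93.9, 95.7 and 96.0 CPM in control set 2. At D26 it was at 119, 121 and 129 CPM in B6 colons, above every other library of the series. Irf1-/- colons held 98.3, 90.9 and 96.4 CPM when untreated and 111, 109 and 104 CPM at D26, again without overlap. The log2 FC was 0.22 (SE 0.09, adjusted p = 0.149) in B6, 0.19 (SE 0.06, adjusted p = 0.146) in the mutants and -0.20 (SE 0.08, adjusted p = 0.199) for the mutants relative to B6 at D26 (edgeR's quasi-likelihood test). The B6 value rested on the controls and on GC content. It was 0.38 with control set 2 in place of set 1 and 0.11 with the GC correction, which also brought the value between genotypes at D26 to -0.09.

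Stat5a, which serves growth hormone, prolactin and the common gamma chain cytokines, was at 26.3, 27.4 and 20.3 CPM in control set 1, 23.9, 25.6 and 24.0 CPM in control set 2 and 23.5, 23.0 and 23.6 CPM in untreated Irf1-/- colons. At D26 it was at 23.8, 23.2 and 30.7 CPM in B6 and at 26.8, 24.4 and 28.7 CPM in the mutants. Its untreated mutant libraries all lay below those of control set 2, by a log2 FC of -0.07 (SE 0.08, adjusted p = 0.853), and below those of the treated mutants (log2 FC 0.19, SE 0.09, adjusted p = 0.287, edgeR's quasi-likelihood test). In B6 the log2 FC was 0.08, and -0.10 with the GC correction. Stat5a lies between Stat5b and Stat3 in RefSeq's gene order on chromosome 11. Its protein-coding sequence is nearly the same as that of Stat5b, so 50 bp reads can be hard to assign and the values of both genes are uncertain.

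Socs3, the Stat3-induced inhibitor of gp130 receptors, was the member with the largest fold change in both responses. It was at 8.37, 10.4 and 8.07 CPM in control set 1, 7.98, 11.2 and 9.29 CPM in control set 2, and 8.58, 9.43 and 7.81 CPM in untreated Irf1-/- colons. At D26 it was at 13.4, 26.2 and 18.2 CPM in B6 (19.3 ± 6.48, SD, n = 3) and at 23.8, 18.1 and 21.1 CPM in Irf1-/- colons (21.0 ± 2.88, SD, n = 3). Every treated library was above every untreated one. Socs3 rose by a log2 FC of 1.29 in the mutants (SE 0.14, 95% CI 0.98 to 1.60, adjusted p = 0.00665, edgeR's quasi-likelihood test), which is 2.44-fold (1.98 to 3.02). In B6 the log2 FC was 1.11 (SE 0.23, 95% CI 0.59 to 1.64, adjusted p = 0.028), or 2.16-fold (1.5 to 3.12), which missed the threshold on the adjusted p. Threshold apart, the responses were not shown to differ. Their difference was 0.18 on the log2 scale (95% CI -0.45 to 0.81, adjusted p = 0.803), and the mutants relative to B6 at D26 gave 0.11 (95% CI -0.39 to 0.61, adjusted p = 0.81). The GC content of Socs3 is higher than that of 93.5% of genes, and the 1382 genes within 2% GC of it had a median of 0.19 in the B6 response. With the GC correction Socs3 had 0.93 (adjusted p = 0.0894) in B6 and 1.25 (adjusted p = 0.00677) in the mutants, with a difference of 0.32 (adjusted p = 0.729) and 0.27 (adjusted p = 0.656) between genotypes at D26.

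The call for Socs3 in the mutants was kept without Irf1-/- D26 replicate 1 and lost on leaving out any other of the 6 mice in turn. In each case the log2 FC stayed at 1.19 to 1.38, with adjusted p of 0.00759 to 0.0511. With log2 Xist as a covariate it was 1.16 (adjusted p = 0.0141, edgeR's quasi-likelihood test). The B6 call was made by DESeq2's Wald test, edgeR's exact test, the fit of all 15 libraries and the fit with both control sets, and at an adjusted p under 0.05. It was not made under the other 8 of 14 alternatives, which apart from the GC correction include limma voom (1.07, adjusted p = 0.0406), the replicate block (1.07, adjusted p = 0.0518), the block with the GC correction (0.89, adjusted p = 0.109) and Xist (0.94, adjusted p = 0.109).

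Markers of some other cell types were higher in the treated groups, as Socs3 was, and others were not. The summed level of the macrophage and monocyte list (9 of 10 genes in every table, among them Csf1r, Cd68 and C1qa) was 257 to 356 CPM in control set 1. It was 263 to 280 CPM in control set 2 and 223 to 268 CPM in untreated mutants. It was 364 to 471 CPM in B6 and 335 to 386 CPM in Irf1-/- colons at D26. The endothelial list (5 of 5) went from 106 to 125 CPM over the untreated libraries to 129 to 154 CPM over the treated ones. The pan-leukocyte list (6 of 6) was at 148 to 291 CPM in control set 1 and 192 to 296 CPM in B6 at D26, which overlap, and at 182 to 226 and 260 to 314 CPM in untreated and treated mutants, which do not. The epithelial list was at 10275 to 10817 CPM in control set 1 and 11343 to 15815 CPM in B6 at D26, which do not overlap, and at 12164 to 12281 and 11927 to 12664 CPM in untreated and treated mutants, which do. Kit, the 1 listed mast cell marker found in every table, was at 66.7 to 79.2 CPM in the untreated and 81.2 to 91.4 CPM in the treated libraries. Mcpt1, Mcpt2, Cpa3 and Ms4a2 were not in every table, so Kit alone does not measure mast cells. The summed level of the 2 neutrophil markers in every table (Cxcr2 and Csf3r) was lower at D26 without overlap. It was 114 to 123 CPM in control set 1 and 97.9 to 109 CPM in B6 at D26, and 137 to 141 and 105 to 125 CPM in the mutants. Csf3r alone overlapped between untreated and treated libraries in both responses. Its untreated and treated means were 24.5 and 24.9 CPM in the B6 response, and 29.1 and 28.2 CPM in the mutants. The other 5 of 7 listed neutrophil markers were not in every table, so this sum does not measure neutrophil number. By flow cytometry, the study reported an influx of neutrophils and inflammatory monocytes in Irf1-/- colons at D26, which these markers cannot test. The B and plasma cell list (5 of 7) separated the control sets, at 581 to 656 CPM in set 1 and 222 to 247 CPM in set 2, and overlapped between untreated and treated groups in both responses (340 to 635 CPM in B6 at D26, 278 to 409 and 188 to 379 CPM in the mutants). The part of these cell types in the Socs3 and Stat values was not tested.

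The rest of the family had smaller fold changes than Socs3 in both responses. Of 9 other listed Jak, Stat and Socs genes, Stat4 had no row and 8 were tested, and none was called in any comparison by edgeR's quasi-likelihood test. At an unadjusted p under 0.05 there were 0 in the untreated genotype comparison and 1 in each of the other 5 comparisons. Their median log2 FC was 0.08 in the B6 response and 0.16 in the mutant response, beside 0.01 over all genes in both. Cish, an inhibitor induced through Stat5, had a log2 FC of 0.29 (SE 0.13, adjusted p = 0.269) in the mutants. Socs7 had the smallest p of the family for the difference between the responses (-0.28, SE 0.09, adjusted p = 0.168), and the B6 control sets differed for it by 0.25 (SE 0.09, adjusted p = 0.176, edgeR's quasi-likelihood test).

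**Figure D3:**
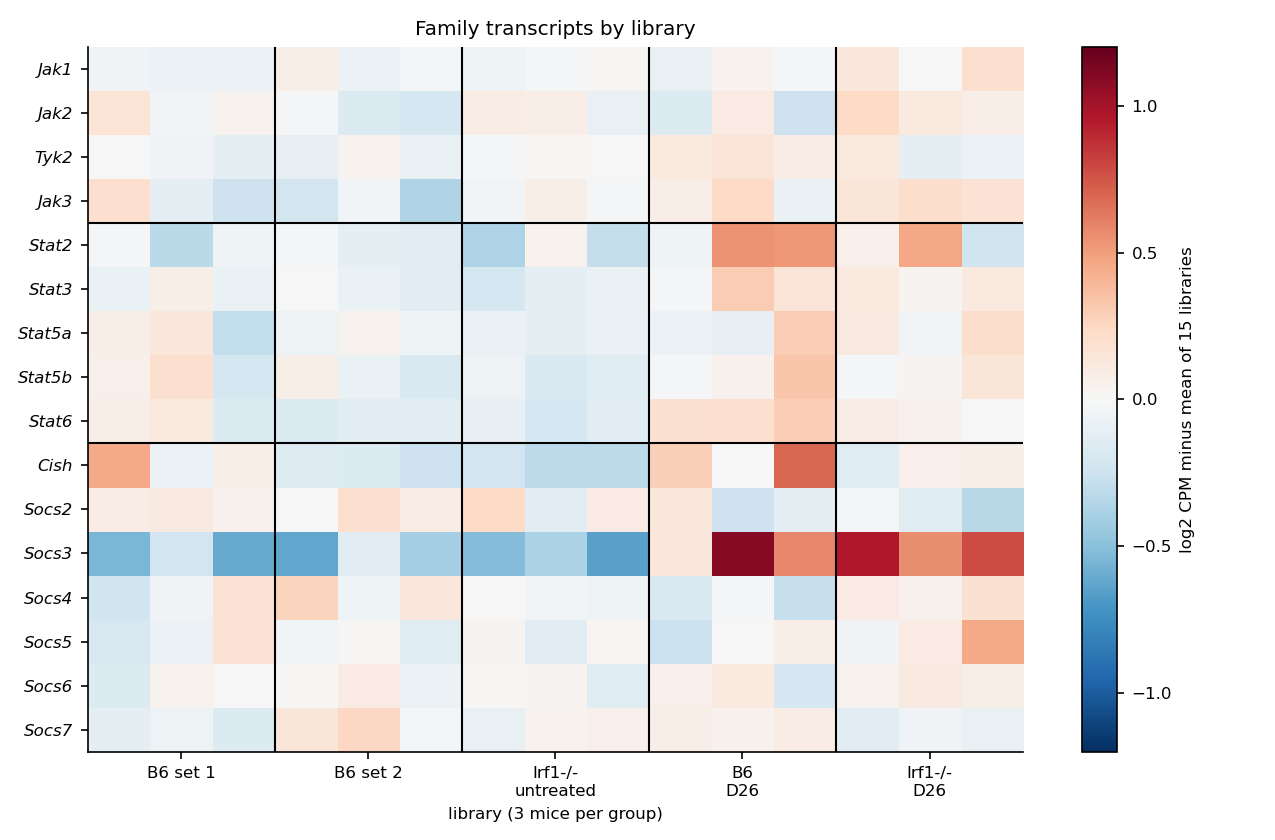
Log2 CPM of 16 Jak, Stat and Socs family genes in each of the 15 libraries (columns, 3 mice per group), as the deviation from the gene's mean over all libraries, with red above and blue below. Socs3 is above its mean in all 6 treated libraries and below it in all 9 untreated ones, and Stat2 is highest in 3 of the treated libraries.

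Likeness between genes across libraries is given here as a description over 15 libraries that share groups, depth and preparation, with Pearson's r of log2 CPM given first and r after centring each group on its mean second. For Stat2 the genes most like it included Tap1, a peptide transporter of antigen presentation (0.88 and 0.83, Spearman's rho 0.79), and Lgals3bp (0.87 and 0.88, rho 0.83). For Stat5a the second most alike gene was its neighbour and near copy Stat5b (0.81 and 0.82, rho 0.71), after Klhdc3 (0.82 and 0.89, rho 0.68) and before Ski (0.76 and 0.76, rho 0.66). For Stat3 they were Emr1 (0.94 and 0.87, rho 0.85), Fam105a (0.93 and 0.87, rho 0.89) and Ctsb (0.93 and 0.88, rho 0.87).

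For Stat6 the most alike genes were Psap, Csnk1e and Sidt2 (r of 0.92 to 0.93), and centring took these to 0.53 to 0.74, lower than before it. For Socs3 they were Tnfrsf11b (0.96 and 0.71, rho 0.84), Capg (0.95 and 0.84, rho 0.86) and Tnfrsf1b (0.95 and 0.73, rho 0.84). Jak1 was most like Pitpna (0.87 and 0.93, rho 0.85), Jak2 most like Ankrd22 (0.91 and 0.88, rho 0.93) and Tyk2 most like Gm8580 (0.90 and 0.80, rho 0.94). Among the 8 genes themselves, Stat3 and Socs3 were the most alike pair (0.84 and 0.71, rho 0.68), and Stat5a and Jak2 the least (-0.15 and -0.37, rho -0.12).

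Few ligands of the pathway reached the tables. Of 27 listed cytokines that signal through Jaks, 3 were tested, namely Il7, Il11 and Il15. None was called, and 2 had an unadjusted p under 0.05 in each response (edgeR's quasi-likelihood test), a level that 14.7% of all genes reached in the higher and 14.8% in the lower direction in B6, and 10.1% and 8.47% in the mutants. Il15, a gamma chain cytokine that sustains NK and CD8 T cells, was at 20.1 ± 1.86 CPM in control set 1 and 14.3 ± 1.02 CPM in B6 at D26 (SD, n = 3 each), a log2 FC of -0.48 (SE 0.12, adjusted p = 0.0408, edgeR's quasi-likelihood test). In the mutants it was -0.28 (SE 0.11, adjusted p = 0.235). Control set 2 was also below control set 1 for Il15, at 16.8, 15.9 and 17.8 CPM against 18.1, 21.8 and 20.4 CPM. Il7, a lymphocyte survival factor, had a log2 FC of -0.48 (adjusted p = 0.119) in B6 and 0.34 (adjusted p = 0.212) in the mutants, with a difference of 0.82 (SE 0.22, adjusted p = 0.112), though the control sets themselves differed for it by -0.40 (adjusted p = 0.28).

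No receptor of the lists below was called, and several were past a looser threshold on the adjusted p. An adjusted p under 0.05 in the higher direction was reached by 1.5% of all genes in the mutant response and 3.95% in the B6 response, and in the lower direction by 0.875% and 4.52%. In the list of gp130 and Il10 family receptors, 3 of 9 tested were higher at this level in the mutant response and 0 of 10 in the B6 response. Osmr, the oncostatin M receptor, was at 16.7, 17.0 and 18.7 CPM in untreated and 31.0, 31.8 and 26.7 CPM in treated Irf1-/- colons (log2 FC 0.77, SE 0.10, adjusted p = 0.0106). In B6 it was at 24.7, 20.9 and 17.0 CPM in control set 1 and at 19.5, 29.7 and 18.5 CPM at D26, and the difference between the responses was 0.66 (SE 0.24, adjusted p = 0.203). Il6st, which encodes gp130, had 0.33 (SE 0.07, adjusted p = 0.0446) in the mutants and a difference between the responses of 0.27 (adjusted p = 0.183). Il10ra had 0.68 (adjusted p = 0.0226) in the mutants and 0.72 (adjusted p = 0.0714) in B6 (edgeR's quasi-likelihood test).

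Of the 12 tested receptors of the common gamma chain, Il4, Il12, beta common and growth hormone groups, 1 was higher and 3 were lower at an adjusted p under 0.05 in the B6 response, and 2 were higher and 1 was lower in the mutant response. Il4ra, the Il4 and Il13 receptor chain that acts through Jak1 and Stat6, was higher in both. It went from 61.0, 54.5 and 46.7 CPM to 67.6, 93.7 and 73.0 CPM in B6 (log2 FC 0.54, SE 0.14, adjusted p = 0.0479) and from 41.8, 48.1 and 46.3 CPM to 77.8, 65.7 and 62.4 CPM in Irf1-/- colons (0.60, SE 0.10, adjusted p = 0.024). Csf2rb, the beta chain of the Il3, Il5 and Gm-csf receptors, had 0.88 (SE 0.12, adjusted p = 0.0162) in the mutants, and its value is uncertain because Csf2rb2 is a near-identical copy. In B6 the mean of Csf2rb was 15.9 CPM in control set 1 and 23.5 CPM at D26. Il2ra was lower in both responses, by -0.37 (adjusted p = 0.0443) in B6 and -0.61 (adjusted p = 0.0388) in the mutants. The control sets also differed for Il2ra, by 0.43 (adjusted p = 0.0918, edgeR's quasi-likelihood test).

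Ghr, the growth hormone receptor that signals through Jak2 and Stat5, was the 1 receptor of these lists with an adjusted p under 0.05 between the genotypes at D26. The genotypes also did not overlap there for Il6st, Il13ra1, Il11ra1 and Ifnlr1, which had an adjusted p of 0.119 to 0.258. Over all genes, 14.5% were higher and 13% lower without overlap in this comparison. Ghr was at 43.2, 45.3 and 45.2 CPM in control set 1 and 30.5 ± 2.89 CPM (SD, n = 3) in B6 at D26, without overlap (log2 FC -0.54, SE 0.09, adjusted p = 0.0198). Irf1-/- colons held 51.6, 49.0 and 47.4 CPM when untreated and 50.2, 45.0 and 41.8 CPM at D26. Relative to B6 at D26 the mutants had 0.57 (SE 0.11, adjusted p = 0.0425), where 0.937% of all genes were higher at this level, and the difference between the responses of 0.44 (SE 0.12) had an adjusted p of 0.116 (edgeR's quasi-likelihood test). Prlr, the prolactin receptor, had -0.52 (adjusted p = 0.037, edgeR's quasi-likelihood test) in B6. It was lower at D26 in the mutants as well, from 36.5, 29.1 and 32.4 CPM to 17.5, 28.5 and 20.4 CPM. The genotypes overlapped for Prlr at D26 (0.20, adjusted p = 0.555, same test). Of 7 listed genes, which are interferon receptor chains and Irf9, none reached an adjusted p under 0.05 in any comparison by edgeR's quasi-likelihood test, and 0 to 2 had an unadjusted p under 0.05. Irf9 had 0.42 (SE 0.13, adjusted p = 0.0667) and Ifnar1 -0.26 (SE 0.08, adjusted p = 0.0681) in the B6 response.

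Of the inhibitors outside the Socs family, 10 of 11 listed were tested. None was called, and 4 in the B6 and 3 in the mutant response had an unadjusted p under 0.05 (edgeR's quasi-likelihood test), beside 14.7% of all genes higher and 14.8% lower in B6 and 10.1% and 8.47% in the mutants. Pias2, a SUMO ligase that binds Stats, was at 74.2, 76.2 and 79.8 CPM in control set 1 and at 55.3, 55.0 and 49.9 CPM in B6 at D26 (log2 FC -0.51, SE 0.08, adjusted p = 0.0165), and the mutant response differed from this by 0.37 (SE 0.10, adjusted p = 0.112). The phosphatases Ptpn2 and Ptpn1 had -0.30 (adjusted p = 0.065) in B6 and 0.30 (adjusted p = 0.0792) in the mutants, respectively (edgeR's quasi-likelihood test). For each, the untreated and treated means moved the same way in both genotypes. They were 48.9 and 39.4 CPM in B6 and 53.0 and 47.7 CPM in the mutants for Ptpn2. For Ptpn1 they were 43.3 and 53.2 CPM in B6 (control set 1) and 42.4 and 52.2 CPM in the mutants.

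Listed ISGF3 target genes had positive values in the B6 response and negative ones in the mutants relative to B6 at D26, in most cases short of the thresholds. The authors filtered each table by level, so the targets tested differ between comparisons and can depend on the levels there. Rsad2, for example, had values in the B6 response only. Counts and medians of the responses thus cover different sets of genes, here and in other lists whose number tested differs. Of 15 listed targets tested, 12 were positive in the B6 response (51.8% of all genes), with a median log2 FC of 0.66. Of these 15, 7 were higher at an adjusted p under 0.05 (3.95% of all genes). Of 13 tested in the mutant response, 8 were positive (51.8% of all genes), with a median of 0.27. In edgeR's quasi-likelihood test 0 reached that level. An unadjusted p under 0.05 was reached by 2 (10.1% of all genes higher and 8.47% lower). At D26 the log2 FC of Irf1-/- relative to B6 colons was negative for all 13 tested (48.5% of all genes were positive), with a median of -0.49. Of these 13, 5 were lower at an adjusted p under 0.05, where 1.11% of all genes were. In untreated colons 2 of 12 were positive (50.8% of all genes), with a median of -0.11, and 2 were lower at an adjusted p under 0.05 (0.81% of all genes). None was called. The difference between the responses was negative for 12 of 13 (51.9% of all genes were positive), with a median of -0.48. No gene of the list reached an adjusted p under 0.05 for it. An unadjusted p under 0.05 was reached by 3 (9.65% of all genes higher and 7.23% lower).

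Irf7, the interferon regulatory factor that amplifies type I interferon, was at 27.3, 27.9 and 30.3 CPM in control set 1 and at 42.3, 79.0 and 67.7 CPM in B6 at D26 (log2 FC 1.15, SE 0.20, adjusted p = 0.0198). Irf1-/- colons held 11.1, 23.7 and 12.3 CPM when untreated and 21.4, 23.3 and 12.2 CPM at D26, which is -1.75 (SE 0.27, adjusted p = 0.0197) relative to B6 at D26. Oasl2 was lower in the mutants in both states, by -1.55 (SE 0.30, adjusted p = 0.038) untreated and -2.34 (SE 0.34, adjusted p = 0.0147) at D26. Ifih1, the RNA sensor Mda5, was lower by -0.68 (SE 0.12, adjusted p = 0.0264) and -0.70 (SE 0.12, adjusted p = 0.0241). Oasl1 and Rsad2, antiviral effectors, had 1.01 (adjusted p = 0.0122) and 1.04 (adjusted p = 0.014) in the B6 response. Dhx58 (-0.91, adjusted p = 0.0496) and Oasl1 (-1.15, adjusted p = 0.0435) complete the 5 that were lower in the mutants at D26, and were named after their values were seen. Oas genes are a family of similar copies, so that Oasl1 and Oasl2 are uncertain where reads are shared.

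Stat2 and its targets can be set side by side in each library. The summed level of the 12 ISGF3 targets found in all tables was 323 to 397 CPM in the B6 control sets and 264 to 341 CPM in untreated mutants. In B6 at D26 it was 398, 524 and 487 CPM for replicates 1 to 3, whose Stat2 levels were 31.1, 47.1 and 46.6 CPM. In Irf1-/- at D26 it was 293, 331 and 250 CPM beside Stat2 levels of 33.8, 44.7 and 27.4 CPM. Replicate 2 of the mutants thus had Stat2 (44.7 CPM) close to the 2 high B6 mice and a target sum below all B6 mice at D26, a comparison of single libraries chosen after their values were seen.

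**Figure D4:**
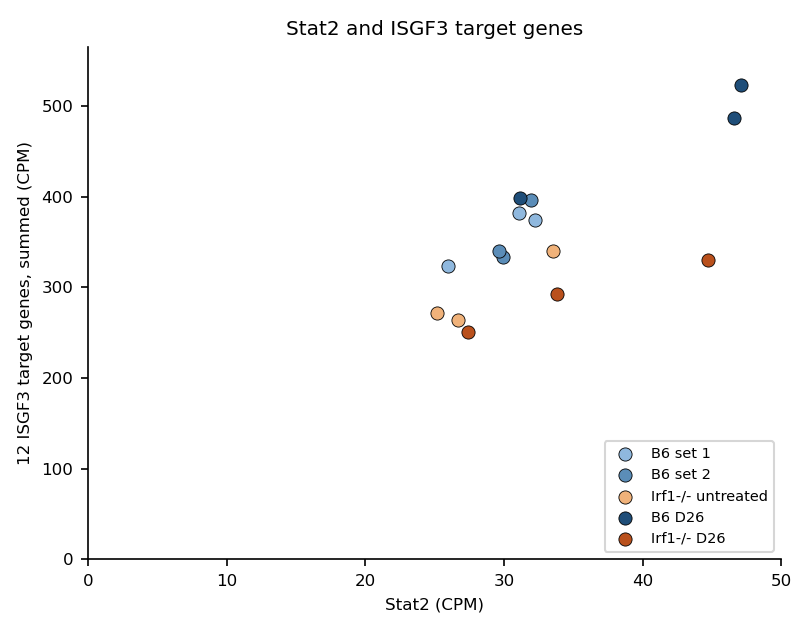
Stat2 level of each library (horizontal axis, CPM) against the summed level of 12 ISGF3 target genes (vertical axis, CPM), with linear axes from 0 and colours for the 5 groups. The 3 libraries with the highest Stat2 levels are all treated, and of these the B6 ones have a target sum of 487 and 524 CPM and the Irf1-/- one has 331 CPM.

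Of the listed targets of Stat3, Stat5 and Stat6 none was called, and those at an adjusted p under 0.05 in either response were higher at D26. Pim1 and Il4ra are in both lists, so the counts of the lists share these genes. Over all genes, 51.8% were positive in each response. An adjusted p under 0.05 in the higher direction was reached by 3.95% in B6 and 1.5% in the mutants. Of the Stat3 targets, 9 of 12 were positive in the B6 response (median 0.24, 3 at an adjusted p under 0.05) and 8 of 11 in the mutant response (median 0.30, 2 at that level). Pim1, a survival kinase, had 0.76 (SE 0.16, adjusted p = 0.028) in B6, and in the mutants relative to B6 at D26 -0.56 (SE 0.16, adjusted p = 0.0981). Cebpd had 0.48 (adjusted p = 0.0396) in B6, where the control sets differed by 0.47 (adjusted p = 0.0628), close to the response in size. Osmr and Il4ra, described above, are the Stat3 targets at that level in the mutants. Of the Stat5 and Stat6 targets, 7 of 11 were positive in B6 (median 0.09, 3 at an adjusted p under 0.05) and 11 of 12 in the mutants (median 0.37, 2 at that level). Arg1, an arginine-degrading enzyme of alternatively activated macrophages, had the largest value of the list, from 15.2, 13.2 and 13.8 CPM to 49.1, 83.1 and 44.5 CPM in B6 (log2 FC 2.07, SE 0.22, adjusted p = 0.0115) and from 28.3, 16.1 and 15.2 CPM to 37.0, 65.2 and 76.7 CPM in the mutants (1.59, SE 0.30, adjusted p = 0.0359, edgeR's quasi-likelihood test). Arg1 and Il4ra were higher at D26 in both genotypes, as the macrophage list given above was, and the part of macrophage number in them was not tested.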

How the data were processed

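Distal colon RNA was depleted of rRNA, prepared with a Kapa stranded kit and sequenced as 50 bp pairs. Per the submitters' processing notes, TopHat2, Bowtie, featureCounts and edgeR were used with mouse build mm9. The authors deposited raw counts per gene in 3 tables, after dropping genes under 5 CPM by a filter over 3 samples. The strand setting of the counting is not given in the sources used here. The authors also deposited their CPM and log2 CPM of each library (36 columns), and the log2 FC, p-values, dispersion and calls of their own tests, none of which was used here. Groups came from the labels.

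Counts were analysed here with edgeR 4.0.16 in R 4.3.3, using TMM factors, a quasi-likelihood test and Benjamini-Hochberg adjustment over all genes of a comparison (12588, 12643 and 12692 genes in the tables). Levels are CPM over the 15 libraries, with totals of 22237032 to 22840011 counts. A prior count of 2 was used for log2 CPM in the GC correction and in the correlation of same-numbered mice. The test of the untreated genotypes was tested on simulated data, where 192 of 200 changed genes were recovered, with 2 false calls. Alternatives used DESeq2 1.42.0, limma 3.58.1, other filters and scalings, a lowess correction for GC (span 0.3), a replicate block, other control sets and leaving out each mouse. A covariate for Xist was added after seeing the data.

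The genes and lists were chosen with earlier results of these data known. Named from each list were the genes with the smallest p in a comparison, and likeness was Pearson's r of log2 CPM, with 3 genes per member. Some listed results are not reported here. Labels name separate mice, and p-values measure the spread between them. Libraries of a group differed beyond counting error (chi-square per degree of freedom 8.65 to 42.7).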

Additional observations from a re-analysis of the deposited data

How the results depend on the processing

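No gene of the 8 was called in the untreated genotype comparison, the genotype comparison at D26, the difference between the responses or the control sets under any alternative run. In the B6 response the number called went from 0 to 1 (Socs3) under DESeq2's Wald test (log2 FC 1.11), edgeR's exact test (1.11), the fit of all 15 libraries (1.11), both control sets together (1.07) and an adjusted p under 0.05 with or without the FC threshold (1.11). Leaving out 1 mouse gave 0 to 1, with 1 without B6 D26 replicate 1, and Socs3 at 0.83 to 1.32. In the Irf1-/- response it was 0 with log2 Xist as a covariate (Socs3 1.16) and 0 to 1 on leaving out a mouse. Over all genes 6 were called in the B6 response, against 441 by DESeq2, 480 by the exact test, 297 in the fit of all libraries, 242 with both control sets, 71 with set 2, 29 with a filter of 10 CPM, and 0 with limma voom, the GC correction or Xist. In the Irf1-/- response 32 were called, against 221 by DESeq2, 264 by the exact test, 55 with the block and GC correction, 15 with Xist and 13 with a filter of 10 CPM. Between genotypes it was 51 untreated and 48 at D26, against 107 and 270 by DESeq2 and 134 and 275 by the exact test, 134 untreated with control set 1, and 240 at D26 in the fit of all libraries. For the difference it was 2 against 75 by DESeq2, and for the control sets 8 against 144 by DESeq2 and 187 by the exact test. The cause was not tested.

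No value that turned sign was past the threshold. In the untreated genotypes Stat6 was -0.00044 with RLE size factors and by DESeq2, -0.0018 with a filter of 10 CPM, -0.0021 with the GC correction, -0.0027 with the replicate block and GC correction, -0.16 with control set 1 and -0.083 with both sets. With control set 1 and both sets Jak1 was 0.042 and 0.013, and with set 1 Jak2 was -0.032. Stat5a in B6 was -0.10 with the GC correction and -0.10 with the block as well, and Jak2 was 0.040 with set 2. In the difference between the responses Stat6 was 0.058 with the GC correction and 0.054 with the block as well, and Stat3 was -0.011 with set 2. At D26 between genotypes Stat3 was 0.0066 with the GC correction and 0.013 with the block as well, and Stat5a was -0.014 with Xist. Between control sets Stat5a was 0.0024 by limma voom, 0.00096 with the block, 0.019 with the GC correction, 0.025 with both and 0.074 with Xist, and Stat2 was -0.034 with Xist.

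Leaving out a mouse turned the sign of Jak1 (-0.040 to 0.031) and Stat6 (-0.023 to 0.029) in the untreated genotypes, Stat5a (-0.065 to 0.17) in B6 and Tyk2 (-0.089 to 0.025) in the mutants. It did so for Socs3 (-0.024 to 0.47), Stat3 (-0.044 to 0.12) and Stat6 (-0.083 to 0.045) in the difference, and for Socs3 (-0.088 to 0.40), Stat3 (-0.15 to 0.0048) and Stat5a (-0.042 to 0.17) between genotypes at D26. Between control sets it did so for Socs3 (-0.047 to 0.20), Stat2 (-0.054 to 0.10), Stat3 (-0.079 to 0.0028), Stat5a (-0.13 to 0.073) and Tyk2 (-0.032 to 0.039). Of all values for the 8 genes, 883 kept direction and side of the threshold and 54 turned.

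Same-numbered mice correlated at -0.22 to 0.25 and only 4 of 15 matched best with their own number, so the replicate block pairs nothing but numbers. With it 5 genes were called in the B6 response, 48 in the Irf1-/- response, 7 between genotypes at D26 and 13 between control sets, and Socs3 kept its call in the mutants. The exact test could not be run for the difference between the responses. Levels per kb were not recomputed with lengths from the files, which hold none, and used the lengths of the annotation alone.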
